A study of Mus musculus with 65 samples.

Results

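The binding of CTCF and TAL1 was described around 9 mouse genes that make heme: Alas2, Alad, Uros, Urod, Cpox, Ppox, Fech, Slc25a37 and Slc25a38. They are 9 of 21938 protein-coding genes in the annotation. Each gene was taken with its whole body and 50 kb on either side, and every called peak in these windows was kept. Peaks of 1 factor that shared at least 1 bp in any libraries were merged into a site. This gave 38 of the 13153 TAL1 sites of the genome and 72 of its 95140 CTCF sites. A site called in at least 50% of the good (Pass) libraries of the cell line is called a reference site. By that rule the windows held 20 of 4567 TAL1 reference sites and 22 of 13938 CTCF reference sites.

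Heme is built partly in the mitochondrion and partly in the cytosol, and red cell precursors make far more of it than other cells because hemoglobin needs it. ALAS2, the erythroid form of aminolevulinate synthase, starts the pathway from glycine and succinyl-CoA, and SLC25A38 brings the glycine into the mitochondrion. ALAD, UROS and UROD then carry the intermediates through the cytosol, CPOX and PPOX oxidise them in the mitochondrion, and FECH inserts the iron that SLC25A37, mitoferrin 1, has imported. TAL1, a helix-loop-helix protein, works with GATA1 at erythroid enhancers, often where part of an E-box stands beside a GATA motif. CTCF recognises a long motif through its zinc fingers and is known for insulating genes and holding the ends of chromatin loops.

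The libraries were made by ChIP-seq, in which sheared chromatin is pulled down with an antibody and sequenced, to ask how the length of the sheared chromatin affects the result. There were 10 Pass, 4 Low pass and 5 Fail libraries of TAL1, and 14 Pass, 2 Low pass and 7 Fail libraries of CTCF, all from G1E-ER4+E2 cells. This mouse erythroid line derives from embryonic stem cells without GATA1, carries an estradiol-dependent GATA1, and had 24 hours of estradiol. The authors gave the assessment by eye from signal at known loci, so it is not independent of the peaks. A further 11 CTCF libraries came from cells that were sorted by surface markers from the bone marrow of young male C57BL/6 mice. These were 1 of CFUE and 2 of ERY (large and small Ter119+ erythroblasts), 1 of MEP, 1 of CMP, 1 of GMP, 2 of LSK, 1 of CFUMk and 2 of iMk; the CMP and GMP libraries were assessed as Low pass. Primary cells were fixed longer than the line, so cell type and fixation cannot be told apart, and TAL1 was mapped in the line only. In the paper, earlier libraries of the line also differed in fixation method. The number of cells per library varied in the line, with no CTCF signal at the lowest number, and rare primary cells were used at low numbers. Cell number and fixation method were not used here, so their part in differences by assessment or cell type cannot be told apart. A list held 2670 to 9763 peaks in TAL1 Pass libraries, 1212 to 2751 in Low pass and 204 to 606 in Fail libraries. For CTCF it held 6629 to 11990 peaks in CFUE and ERY, 15002 to 36481 in the other primary cells, and, in the line, 10655 to 21986 in Pass, 6542 to 7078 in Low pass and 193 to 17343 in Fail libraries. Nothing in the labels says that libraries of a group came from separate cultures or mice, so the p-values measure the spread between libraries, which may be technical. The lists give no read depth, on which fold enrichment depends, and expression markers of the cell types were not measured. Below, TAL1 libraries are named by the average length of their chromatin.

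The sequences that carry these sites are shown first. Each is read 5′ to 3′ from the GRCm38 reference (RefSeq), in lower case with the motif in capitals. At TAL1 sites the composite motif CTG, any 8 bases, then AGATAA was searched on both strands, and AGATAA alone, which is part of it, was searched too. The composite was found in 4 of 20 reference sites (20%), against 660 of 4567 in the genome (14.5%), and in windows of the same length 10 kb away in 0% and 1.64%. AGATAA alone was found in 14 of 20 (70%), against 74.2% in the genome, and 10 kb away in 65% and 44.6%. Shown are 3 of the 4 composite matches and 1 AGATAA from each of 3 sites that the results below turn on. The Cpox promoter site holds 3 AGATAA, of which that nearest the gene start is shown. The Ppox match lies in the untranslated part of exon 1.
Alas2 intron 1, chrX:150549844-150549880, minus strand: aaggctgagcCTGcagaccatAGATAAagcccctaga
Urod intron 1, chr4:116993774-116993810, minus strand: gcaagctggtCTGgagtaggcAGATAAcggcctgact
Slc25a38 intron 1, chr9:120112554-120112590, plus strand: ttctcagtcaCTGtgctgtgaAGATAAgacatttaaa
Uros intron 5, chr7:133698124-133698149, minus strand: tggctcatgtAGATAAgtggggttca
Cpox promoter, chr16:58670202-58670227, minus strand: cggaaagagcAGATAAgactgcaccc
Ppox exon 1, chr1:171281023-171281038, plus strand: tgtgcAGATAAgggcc

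At CTCF sites a matrix of 19 positions, learned from the strongest peaks of an LSK library outside the windows, was scanned on both strands. A match was found in 22 of 22 reference sites (100%), against 96.4% of reference sites in the genome, and 10 kb away in 22.7% and 29.1%. The capitals mark the 19 matched bases. Shown are the promoters of Ppox, Slc25a38 and Slc25a37, the strong site upstream of Slc25a38, the site inside Urod, and both motifs of the site upstream of Slc25a37.
Ppox promoter, chr1:171281830-171281868, minus strand: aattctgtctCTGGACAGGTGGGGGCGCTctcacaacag
Slc25a38 promoter, chr9:120110278-120110316, plus strand: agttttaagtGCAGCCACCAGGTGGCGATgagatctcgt
Slc25a38 upstream, chr9:120073340-120073378, minus strand: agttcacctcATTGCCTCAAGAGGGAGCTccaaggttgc
Urod exon 7, chr4:116991536-116991574, minus strand: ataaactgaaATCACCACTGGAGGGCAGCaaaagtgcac
Slc25a37 upstream, nearer, chr14:69324608-69324646, minus strand: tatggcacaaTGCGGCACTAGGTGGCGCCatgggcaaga
Slc25a37 upstream, farther, chr14:69325959-69325997, minus strand: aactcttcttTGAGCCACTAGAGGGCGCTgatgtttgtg
Slc25a37 exon 1, chr14:69284971-69284999, plus strand: aggagGTGGGCAGGAGGGGGAGGGggagg
The score of the last, 9.55, was the weakest best match of the 27 CTCF sites called in at least 50% of Pass libraries of the line or of primary libraries, where the matrix accepts scores of 8.13 or more, and that of the farther upstream motif was 20.4.

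All 9 genes had a TAL1 reference site within 50 kb, against 31.8% of all protein-coding genes. Within 10 kb 8 of 9 had one, against 16.3%, and in 8 of 9 a site overlapped the gene itself, against 10.2%. The exception at 10 kb was Slc25a37, whose sites lay farther upstream. The median number of TAL1 reference sites per window was 2 for the 9 genes and 0 over all genes. Of the 20 sites, 15 (75%) were called in all 10 Pass libraries, against 1877 of 4567 in the genome (41.1%), and the median rank of the 20 within a Pass library was 86 on a scale where 100 is the strongest peak. By position 5 lay within 1000 bp of a transcript start, 11 in introns and 4 between genes. CTCF reference sites stood within 50 kb of 9 of 9 genes, against 68.2% of all genes, and within 10 kb of 6 of 9, against 43.8%. Their median number per window was 2 for the 9 genes and 1 over all genes, 9 of 22 (40.9%) were called in all 14 Pass libraries, against 40.7% in the genome, and their median rank was 51.9. These shares are descriptions, and no test was made of them.

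**Figure D1:**
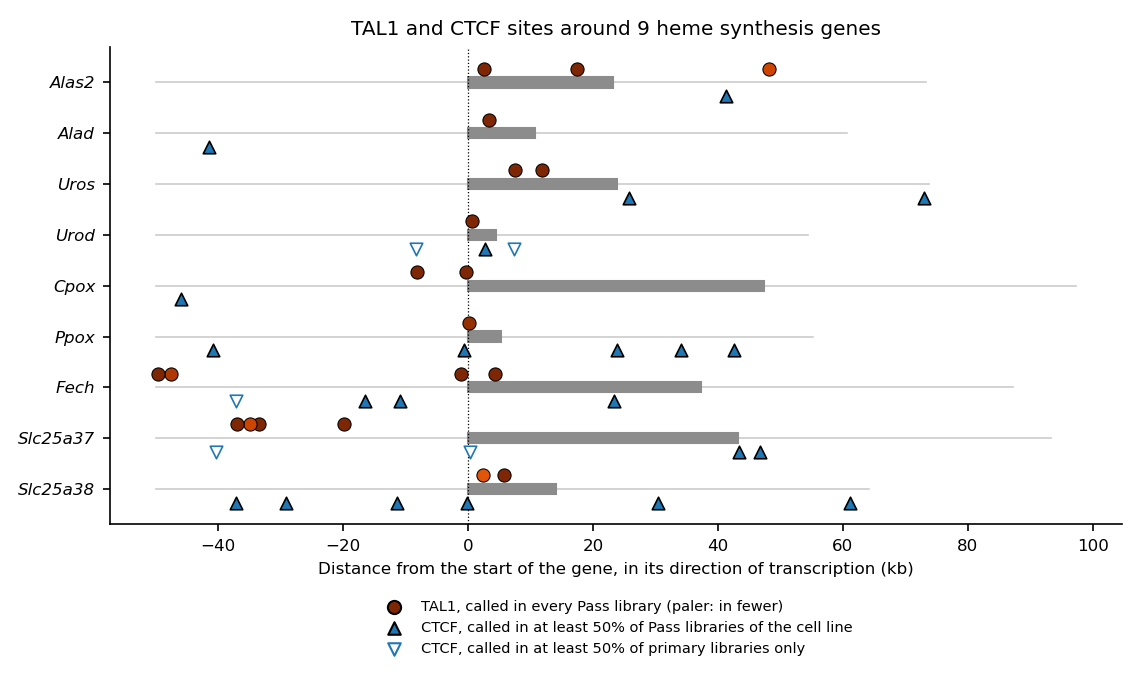
TAL1 and CTCF sites by distance from the start of each gene in its direction of transcription (kb), with the gene as a grey bar and the window as a line. TAL1 reference sites (circles) lie in or beside every gene but Slc25a37, where all 4 are upstream; filled triangles are CTCF reference sites of the line and open triangles CTCF sites called in at least 50% of primary libraries but not in 50% of the line's.

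**Figure D2:**
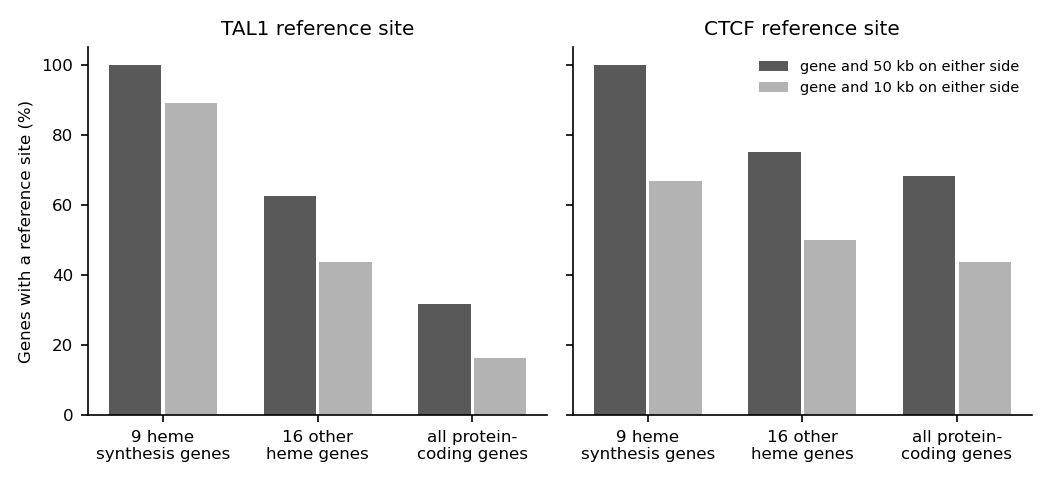
Percent of genes with a reference site of TAL1 (left) or CTCF (right) in the gene and 50 kb (dark) or 10 kb (light) on either side. For TAL1 the bars stand at 100% and 88.9% for the 9 heme synthesis genes, 62.5% and 43.8% for the 16 other heme genes, and 31.8% and 16.3% for all protein-coding genes.

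Alas2, on chromosome X from 150547375 to 150570638, had 2 strong TAL1 sites in its introns. The site in intron 1 (chrX:150549287-150550569, 2553 bp from the start, with the composite motif shown above) was called in all Pass and all Low pass libraries. Its fold enrichment ran from 14.8 to 58.3 with a median of 32.4 in Pass libraries, and was 18.1, 14.4, 14.3 and 11 in Low pass libraries, so the groups overlapped. The site in intron 8 (chrX:150564271-150565445, 17483 bp) ran from 17.5 to 50.3 with a median of 24 in Pass libraries, above its 15.3, 9.78, 8.81 and 8.15 in Low pass libraries. A transcript of Apex2 also spans both sites in the annotation. A weaker site at the Pfkfb1 promoter, 48155 bp downstream (chrX:150595083-150595978), had a median of 10.4 in 7 of 10 Pass libraries and was called in no other.

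Alad had 1 TAL1 reference site, in intron 1 (chr4:62515049-62518201, 3293 bp), and it was the strongest of the 20 by median. Fold enrichment ran from 34.1 to 73.9 with a median of 44.1 in Pass libraries, and was 29.5, 23.7, 20.8 and 19.2 in Low pass libraries. All Low pass folds lay below all Pass folds, but by rank within a library the groups overlapped, with 90.3 to 95.7 in Low pass and 95.1 to 98.1 in Pass libraries. It was also called in 2 Fail libraries, at 23.5 in that of 183 bp and 7.52 in that of 295 bp. Its ranks within these 2 libraries were low, 15.3 and 8.59. The interval is 3153 bp wide and held more than 1 peak in 5 of the 16 libraries that called it.

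Uros had 2 sites in its own introns. That in intron 5 (chr7:133697651-133698750, 11872 bp) ran from 9.85 to 64.9 with a median of 29.1 in Pass libraries, and stood at 22.7, 13.9, 11.2 and 8.83 in Low pass libraries. In the Fail library of 183 bp it reached 35.99, at a rank of 67.8 within that library, where its median rank in Pass libraries was 88.7. That in intron 1 (chr7:133702084-133703120, 7470 bp) had a median of 19.5 in Pass libraries and was called in 2 Low pass libraries, at 12.03 and 8.83. Urod had a single site, in intron 1 and within 1000 bp of the starts of both Urod and its neighbour Hectd3 (chr4:116993209-116994342, 638 bp). Its fold enrichment was 14.8 to 63.2 with a median of 26.7 in Pass libraries, and 20.03, 18.97, 11.4 and 9.51 in Low pass libraries.

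Cpox had a site at its promoter and one upstream, and the upstream one was the stronger. The site at −8212 bp (chr16:58661459-58662701) ran from 23.3 to 69.1 with a median of 35.6 in Pass libraries, and stood at 25.5, 17.1, 16.8 and 16.3 in Low pass libraries. It was called in 2 Fail libraries too, at 21.6 for 183 bp and 13.04 for 166 bp, with ranks of 8.66 and 60.1 within these libraries. The promoter site at −356 bp (chr16:58669180-58670693) had 11.1 to 60 with a median of 29.8 in Pass libraries, and 12.03, 10.2, 8.56 and 8.01 in Low pass libraries. Ppox had 1 weaker site at its start (chr1:171280561-171281506, 153 bp), over the exon 1 motif printed above. Its fold enrichment ran from 6.27 to 20.2 with a median of 13 in 9 of 10 Pass libraries, all but that of 269 bp, and a single Low pass library (176 bp) called it, at 8.01.

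Fech, on chromosome 18 from 64452914 to 64490251, had 4 TAL1 reference sites. That in intron 1 (chr18:64485332-64486444, 4363 bp) ran from 21.5 to 63.8 with a median of 34.6 in Pass libraries, and the one around the promoter, at −1197 bp (chr18:64490839-64492057), from 21.9 to 69.3 with a median of 31.9. At both, the 4 Low pass values, 10.9 to 20.4 and 12.6 to 20.4, lay below every Pass value. By rank within a library the groups overlapped at both, since the highest Low pass ranks, 87.8 and 86.5, stood above the lowest Pass ranks, 86.9 and 84.6. The other pair stood near the edge of the window in introns of Atp8b1, at −47606 bp and −49615 bp, with medians of 11.1 in 8 Pass libraries and 14.1 in all 10.

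The mitochondrial carriers differed in where TAL1 stood. Slc25a37 had 4 reference sites between −19843 and −36984 bp from its start and none in the gene. The strongest, at −33419 bp (chr14:69317956-69319107), ran from 20.6 to 55 with a median of 28.2 in Pass libraries and was 20.8, 15.2 and 11 in 3 of 4 Low pass libraries. Its neighbours at −34920 bp (7 of 10 Pass libraries) and −36984 bp (10 of 10) had medians of 12 and 11, and the site at −19843 bp, in an intron of Gm27223, had 16.8. Slc25a38 had both its sites in intron 1. The one at 5709 bp (chr9:120115196-120116971) ran from 13.2 to 63 with a median of 26.1 in Pass libraries and was 13.9, 13.7, 12.7 and 9.89 in Low pass libraries. The one at 2402 bp (chr9:120112062-120113491), which holds the composite motif shown above, was called in only 6 of 10 Pass libraries and in no other library, with 5.24 to 21.5 and a median of 9.01, the lowest of the 20.

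**Figure D3:**
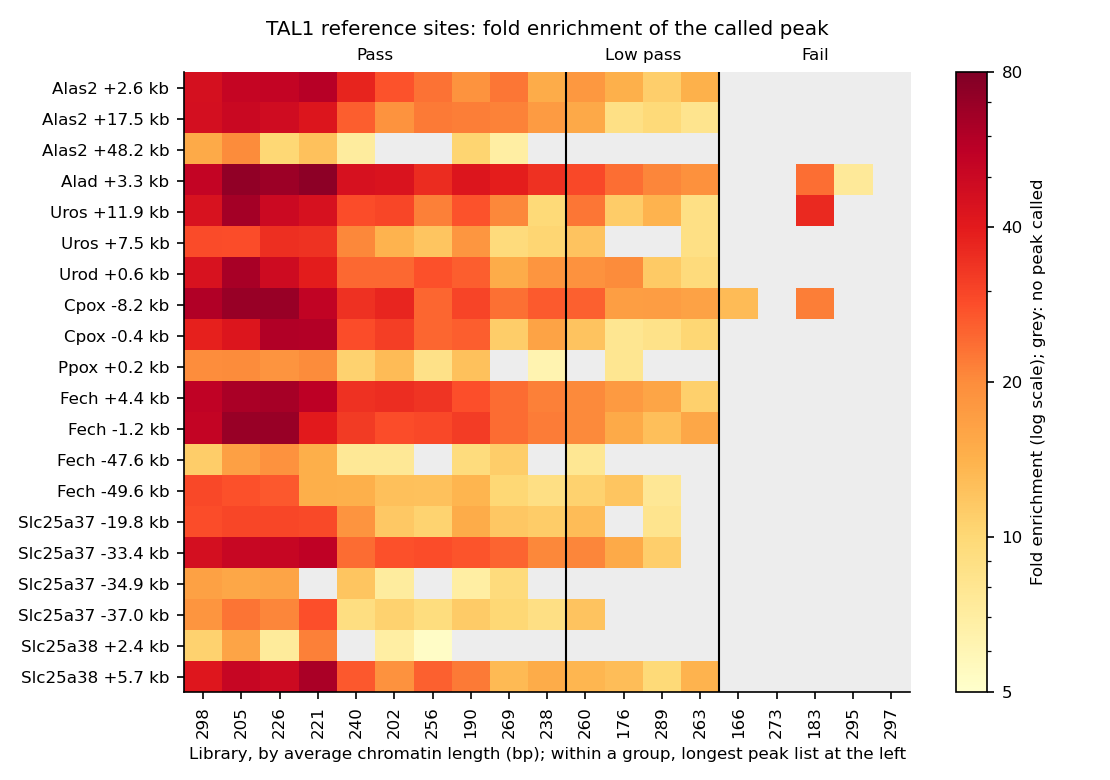
Fold enrichment (colour, log scale) of the called TAL1 peak at each of the 20 reference sites (rows, with distance from the gene start) in each of the 19 libraries (columns, by average chromatin length in bp); grey marks no call. Alad +3.3 kb, with a median of 44.1 in Pass libraries, is dark across the Pass columns, and 10 of the 20 rows are filled across all 4 Low pass columns.

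Sites with high fold enrichment in Pass libraries were those that weak libraries still called. The 10 sites called in all 4 Low pass libraries had median folds of 24 to 44.1 and median ranks of 85.9 to 96.7 in Pass libraries. The other 10 had median folds of 9.01 to 28.2 and median ranks of 27.9 to 91.1, and Slc25a37 at −33419 bp was the one above 19.5. The 3 sites called in a Fail library, in Alad, Uros intron 5 and upstream of Cpox, were among the 10. At each of the 15 sites called in every Pass library, the 4 highest folds came from the libraries of 205, 221, 226 and 298 bp, whose lists held 9052, 4486, 7868 and 9763 peaks. The share of the 20 reference sites that a library called was 80 to 100% in Pass libraries, where it was 55.3 to 99.9% for the reference sites of the genome. In Low pass libraries it was 55 to 80%, and 25.2 to 57% for the genome, and in Fail libraries 0 to 15%, and 0.131 to 6.59% for the genome. The weakest Low pass library, of 263 bp, called 11 of the 20 sites and 25.2% of those of the genome.

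**Figure D4:**
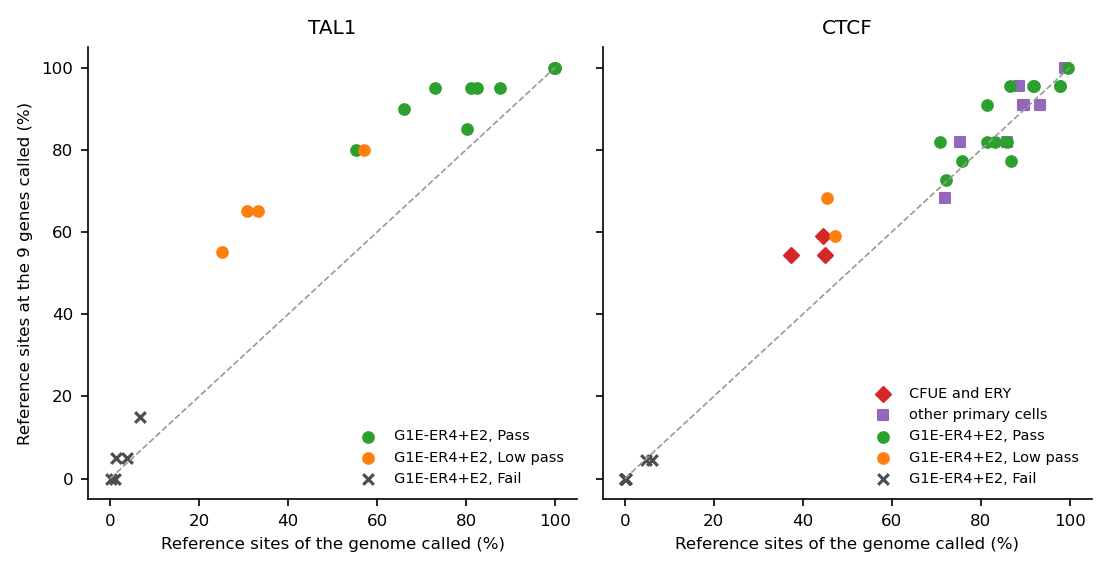
Percent of the reference sites at the 9 genes that each library called (vertical) against the percent of all reference sites of the genome it called (horizontal), for TAL1 (left) and CTCF (right); the line marks equal shares. All 4 Low pass TAL1 libraries, at 55 to 80%, lie above the line, and the CTCF libraries of CFUE and ERY, at 54.5 to 59.1%, do as well.

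Whether calls at a site differed between Pass libraries and the Low pass and Fail libraries was tested by a two-sided Fisher's exact test on the number of libraries with a call, with Benjamini-Hochberg adjustment over all 7115 TAL1 sites called in at least 3 libraries. Of the 26 sites in the windows that could be tested, 17 (65.4%) were called more often in Pass libraries, against 48.9% of all sites tested, and none less often. All 17 were reference sites, and being called in Pass libraries is what makes a reference site, so that they differ in that direction is in part their definition. The exact test gave the smallest adjusted p, 0.0016, at Slc25a37 −36984 bp, called in 10 of 10 Pass libraries and 1 of 9 others. The reference sites that did not pass were the widest called: Alad and Cpox −8212 bp, each in 10 of 10 Pass and 6 of 9 other libraries (adjusted p = 0.113, Fisher's exact test), and Uros intron 5, in 10 of 10 and 5 of 9 (adjusted p = 0.0541, exact test). The count of 17 is close to the limit of the design. Without any 1 of the 10 Pass libraries it was 9 or 10 of 20 to 26 sites tested, against 35.6 to 41.2% of the sites tested over the genome, so the share in the windows was then close to that of the genome. This was because 7 sites called in all Pass and all Low pass libraries, in Alas2 (both intron sites), Urod, Cpox, Fech (2) and Slc25a38, then had adjusted p of 0.0516 to 0.0584 by the same exact test. The site of Slc25a38 at 2402 bp also missed the threshold without any 1 of the 6 Pass libraries that called it (adjusted p 0.0516 to 0.0573, exact test).

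CTCF sites were spread unevenly over the windows, with 6 of the 22 reference sites at Slc25a38, 5 at Ppox and 3 at Fech. Of the 22, 5 lay within 1000 bp of a transcript start, 7 in introns, 2 in exons and 8 between genes. The reference site with the highest median fold in Pass libraries stood near Slc25a38 at −37115 bp (chr9:120072673-120073846), between genes. Its fold enrichment ran from 14 to 125 with a median of 25.1 in primary libraries, where all 11 called it, and from 9.73 to 70.1 with a median of 23.2 in the 14 Pass libraries of the line. Its median rank in those Pass libraries was 97. The promoter of Slc25a38 carried another, at −171 bp (chr9:120109625-120110781), called in 10 of 11 primary libraries and all 14 Pass libraries, with medians of 27.3 and 17.6. These 2 sites were the ones that a Fail library called, in each case 1 of 7, at 11.6 in the library of 194 bp and 9.95 in that of 196 bp. Between them the site at −11359 bp (chr9:120098316-120099714) had a median of 26 in 8 primary libraries and 16.3 in all 14 Pass libraries. Downstream, the site at 30430 bp (chr9:120140203-120141406) was called in 11 of 11 and 14 of 14. The weakest 2 stood at −29170 bp and, in Mobp, at 61086 bp, in 5 of 11 and 8 of 11 primary libraries and in 7 and 8 of 14 Pass libraries, and the first of them held 2 matches with the same score of 20.4 on opposite strands.

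Ppox, which lies among closely spaced genes, had a CTCF site at its promoter at −600 bp (chr1:171281228-171282344). All 11 primary libraries called it, at 14.7 to 67.1 with a median of 23.1, and all 14 Pass libraries, at 12.7 to 35.6 with a median of 20 and a median rank of 90.2. This site overlapped the TAL1 site at the start of Ppox, and it was the only one of the 20 TAL1 reference sites that overlapped a CTCF reference site; in the genome 240 of 4567 did (5.26%). The promoter TAL1 site of Cpox overlapped a CTCF site that was no reference site. Among the sites downstream of Ppox was one in Adamts4 (23831 bp), called in 10 of 11 primary and 13 of 14 Pass libraries. A weaker one lay at −40840 bp, in 7 of 11 primary and 8 of 14 Pass libraries.

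Urod had a CTCF site within the gene that all primary and all Pass libraries called. This site, in exon 7 (chr4:116991020-116992258, 2774 bp), had a median fold of 17.5 in 11 of 11 primary libraries and 14.1 in 14 of 14 Pass libraries. Beyond the end of Urod a site in the last exon of Zswim5 (chr4:116986462-116987544) was called in 10 of 11 primary and 5 of 14 Pass libraries, and one in Hectd3 at −8370 bp in 8 of 11 and 6 of 14; neither was a reference site. Slc25a37 had its reference sites just past its end, at 43360 and 46697 bp. The farther (chr14:69237877-69238953) was called in all 11 primary and all 14 Pass libraries with medians of 29.4 and 15.7, and the nearer in 9 of 11 and 14 of 14.

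At Fech the CTCF sites stood in intron 6 (23415 bp) and, upstream, in introns of Nars (−10853 and −16565 bp). They were called in 8, 8 and 4 of 11 primary libraries and in 13, 14 and 13 of 14 Pass libraries. A site at −37191 bp, described for its calls in primary cells and no reference site, was called in 8 of 11 primary and 4 of 14 Pass libraries (adjusted p = 0.187, Fisher's exact test). In the windows of Uros, Alad, Cpox and Alas2 the CTCF reference sites stood outside the gene. Uros had 1 at the promoter of Edrf1, a gene of erythroid differentiation (73038 bp, in 9 of 11 primary and 13 of 14 Pass libraries), and 1 closer, at 25785 bp (10 of 11 and 11 of 14). Alad had 1 in Rgs3 at −41478 bp (8 of 11 and 11 of 14), Cpox 1 at −46038 bp (6 of 11 and 12 of 14), and Alas2 1 at 41300 bp, where Apex2 and Pfkfb1 start (5 of 11 and 8 of 14, with a median fold of 8.71 in Pass libraries).

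**Figure D5:**
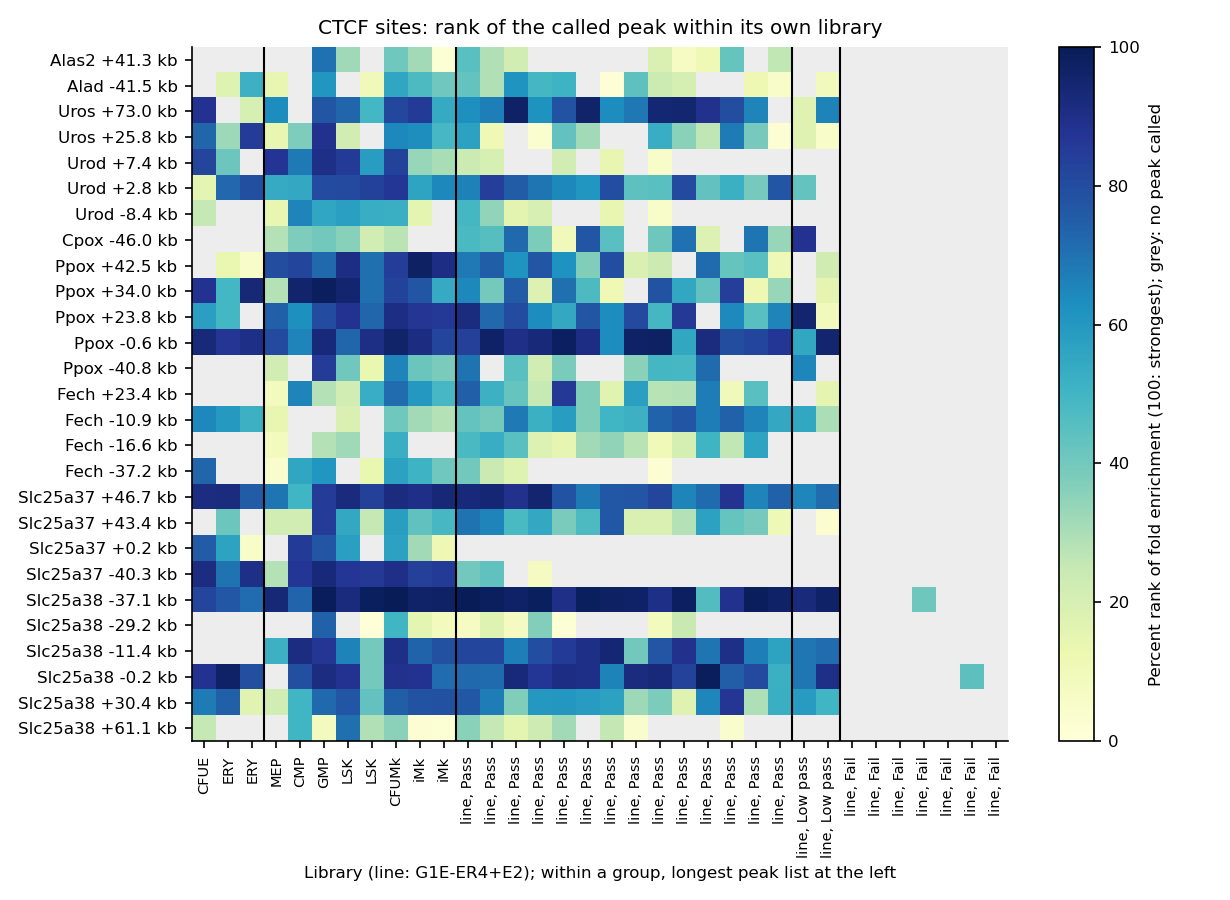
Percent rank of the called CTCF peak within its library (colour, 100 the strongest; grey, no call) at the 27 CTCF sites called in at least 50% of Pass libraries of the line or of primary libraries (rows) in the 34 CTCF libraries (columns; CFUE and ERY, other primary cells, then Pass, Low pass and Fail libraries of the line). The promoter of Slc25a37 (+0.2 kb) is filled in 9 of 11 primary columns and in none of the line, and the sites at Fech 23415 bp and Slc25a38 −11359 bp are grey in all 3 columns of CFUE and ERY.

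By the same exact test over 20658 CTCF sites, 21 of 30 tested in the windows (70%) were called more often in Pass than in Low pass or Fail libraries, against 65.5% of all sites tested, and none less often. All 21 were reference sites, and the same limit of definition holds. The reference site that did not pass was that of Ppox at −40840 bp, in 8 of 14 Pass and 1 of 9 other libraries (adjusted p = 0.0594, Fisher's exact test). The 2 Low pass libraries called 13 and 15 of the 22 reference sites, 59.1 and 68.2%, against 47.2 and 45.5% of those of the genome. Pass libraries called 72.7 to 100%, where they called 70.9 to 99.6% of those of the genome, and no Fail library called more than 1.

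Primary cells were compared with the Pass libraries of the line to see where CTCF near these genes differed between sorted blood cells and G1E-ER4+E2. Of 36 sites tested in the windows 2 (5.56%) were called more often in primary cells, against 9.82% of 28834 sites tested, and 0 less often, against 1.28%; at an unadjusted p under 0.05 there were 8 of 36, against 25.8% of all sites tested. Both stood at Slc25a37. The site upstream of the gene at −40306 bp (chr14:69324054-69326783) was called in 11 of 11 primary and 3 of 14 Pass libraries (adjusted p = 0.00387, Fisher's exact test). Its fold enrichment was 29.8 in CFUE, 12.7 and 19.4 in ERY, 8.70 in MEP, 33.9 in CMP, 68.3 in GMP, 15.7 and 38.0 in LSK, 50.5 in CFUMk and 24.5 and 31.6 in iMk. In the line it was 6.52, 8.60 and 16.6, in the Pass libraries of 214, 226 and 220 bp. The interval holds 2 peaks with a motif each, printed above. The nearer, at −39490 bp, was called in 11 of 11 primary and 0 of 14 Pass libraries, and the farther, at −40916 bp, in 11 of 11 and 3 of 14.

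The other was the promoter of Slc25a37 itself (chr14:69284052-69285682, 245 bp), called in 9 of 11 primary and 0 of 14 Pass libraries (adjusted p = 0.00169, Fisher's exact test). Its fold enrichment was 20.04 in CFUE, 11.02 and 6.99 in ERY, 32.3 in CMP, 42.7 in GMP, 22.4 in 1 of 2 LSK libraries, 24.6 in CFUMk and 8.26 and 13.4 in iMk, and MEP had no call. Both sites are described because at least 50% of primary libraries called them, and the lists of primary cells other than CFUE and ERY, 15002 to 36481 peaks, reached beyond the 10655 to 21986 of the line. To see what list length does, each library was also cut to its 6629 strongest peaks, a check added after seeing the data. The upstream site then had 10 of 11 primary and 0 of 14 Pass libraries (adjusted p = 0.000164, exact test), while the promoter had 4 of 11 and 0 of 14 and no longer passed (adjusted p = 0.0991, exact test). The promoter also missed the threshold when peaks needed a −log10 p of at least 10, with 5 of 11 and 0 of 14 (adjusted p = 0.0629, exact test).

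A pair of further sites was near the threshold, in opposite directions. Zswim5 near Urod was called in 10 of 11 primary and 5 of 14 Pass libraries (adjusted p = 0.0748, Fisher's exact test). It passed with peaks of −log10 p of at least 10, in 10 of 11 and 1 of 14 (adjusted p = 0.00275, exact test), and with equal lists, in 6 of 11 and 0 of 14 (adjusted p = 0.0211, exact test). It did not pass with primary libraries assessed as Pass alone, in 8 of 9 and 5 of 14 (adjusted p = 0.16, exact test). The site in Nars at −16565 bp from Fech was called in 4 of 11 primary and 13 of 14 Pass libraries (adjusted p = 0.0555, exact test). These 4 primary libraries were LSK, MEP, GMP and CFUMk. The Nars site passed with the 9 primary libraries assessed as Pass alone, in 3 of 9 and 13 of 14 (adjusted p = 0.0492, exact test). It did not pass with peaks of −log10 p of at least 10, in 1 of 11 and 4 of 14 (adjusted p = 0.656, exact test).

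Red cell precursors, in which heme is made, were compared with the other primary cells. CFUE called 12 of the 22 reference sites and ERY 13 and 12, and the other primary cells called 18 (MEP), 15 (CMP), 21 (GMP), 18 and 20 (LSK), 22 (CFUMk) and 20 and 20 (iMk). Over the genome CFUE and ERY called 37.3 to 45% of reference sites and the others 71.9 to 99%, so the whole lists of CFUE and ERY were shorter and the groups did not overlap in this measure. None of 34 sites tested in the windows passed Fisher's exact test, against 0% of 26147 sites tested over the genome, and at an unadjusted p under 0.05 there were 3 of 34 in the windows and 5251 (20.1%) over the genome. With 3 against 8 libraries the smallest p is 0.00606, which became 0.0539 after adjustment over all sites, so this exact test could call no site. The sites at that limit were Fech intron 6 and Slc25a38 −11359 bp, each called in 0 of 3 libraries of CFUE and ERY and in 8 of 8 others. With equal lists the Slc25a38 site had 0 of 3 and 5 of 8 (p = 0.182, exact test), and the Fech site was called in none of the 11. The next was Ppox −40840 bp with 0 of 3 and 7 of 8 (adjusted p = 0.121, exact test).

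CFUE and ERY did keep CTCF at several sites. All 3 libraries called the Ppox promoter, at 31.3, 16.5 and 18.97, the Slc25a38 promoter, at 26.6, 22.8 and 15.5, and the Slc25a38 site at −37115 bp, at 22.7, 13.96 and 13.98. They also called, among others, the exon of Urod, both sites beside Slc25a37 at 46697 and −40306 bp, the Slc25a37 promoter, Uros 25785 bp, Fech −10853 bp and Slc25a38 30430 bp. At the Slc25a37 promoter the direction depended on the setting. With all peaks it was called in 3 of 3 of them and 6 of 8 others. With equal lists it was called in 3 of 3 and 1 of 8 (p = 0.0242 and adjusted p = 0.341, exact test). With peaks of −log10 p of at least 10 it was called in 0 of 3 and 5 of 8 (adjusted p = 0.355, exact test).

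A second list held 16 other genes of heme supply, transport and breakdown. Of these 10 (62.5%) had a TAL1 reference site within 50 kb and 7 (43.8%) within 10 kb, and 12 (75%) and 8 (50%) had a CTCF reference site. Glrx5, which assembles iron-sulfur clusters, had 6 TAL1 reference sites within 50 kb and 2 in the gene. Blvrb, a biliverdin reductase, had 3 in the gene, and Tmem14c, a porphyrin transporter of the mitochondrion, had 2. Abcb10, which stabilises mitoferrin 1, had 3 within 10 kb. Alas1, the form of the first enzyme that most other cells use, had no TAL1 reference site within 50 kb and 1 of CTCF. Neither Blvra nor Clpx had a reference site of either factor in that window.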

How the data were processed

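ChIP-seq of CTCF (34 libraries) and TAL1 (19) was analysed from deposited peak lists. The authors mapped reads to mm10 (GRCm38) with Bowtie, removed mitochondrial, unplaced and unmapped reads, and called peaks per library with MACS, for most cell line libraries against a composite input. Versions in the submitters' processing notes were 1.8.4 for bcl2fastq and 1.0.0 for Bowtie; an earlier Bowtie stands in the paper's methods. The deposited lists give the fold enrichment (a ratio over background) and the −log10 p of each peak, at least 5, as the authors computed them. They also hold an FDR, a q-value as a fraction, deposited by the authors and not used here. Input samples were not analysed here.

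Peaks were merged per factor over all libraries (at least 1 bp shared), placed by their centres with GENCODE vM21 (gene ends from the full set, which gives Cpox a long non-coding transcript, and exons from the basic set), and ranked by fold within a library. A site counted as within 1000 bp of a transcript start, or at a promoter, if any part of it lay that near. Site calls were compared by Fisher's exact test, two-sided, over sites called in at least 3 libraries, with Benjamini-Hochberg adjustment and a threshold of 0.05; the code was tested on simulated data. Sites called in at least 50% of Pass libraries of the line or, for CTCF, of primary libraries are described one by one, except 2 CTCF sites not reported here, and others by counts. The genes, lists and tests were chosen with earlier results of these data known. The CTCF matrix was learned in 15 rounds on 2000 top peaks (their central 200 bp) and scanned at a p of 0.0001. One TAL1 library (221 bp) has an antibody label of CTCF and was used by its title: 79.3% of its peaks overlap TAL1 and 4.44% CTCF reference sites. Alternatives were stricter peaks, other merging, 10 kb windows, subsets of libraries, and equal lists (added after seeing the data). Python 3.11.15, scipy 1.17.1, pandas 2.3.3, numpy 2.4.6 and pysam 0.24.0 were used. Some results at neighbouring or related genes are not reported here.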

Additional observations from a re-analysis of the deposited data

Results flagged for a closer look

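In 4 of 31 groups of values over 4 to 10 libraries, the highest value stood farther from the next than Dixon's test allows at 95%. Chance gives about 1 in 20. Most groups were fold enrichments at a site, and the rest were counts of reference sites called by the libraries of a group. All 4 were fold enrichments in the Pass CTCF library of 220 bp, whose list of 21986 peaks is the longest of the 14. At the Apex2 and Pfkfb1 promoters near Alas2 it had a fold of 18.2, and the next of 8 libraries 9.72. At the Hectd3 site near Urod it had 19.33, and the next of 6 libraries 8.81. At Ppox −40840 bp it had 27.69, and the next of 8 libraries 12.86. In Mobp near Slc25a38 it had 15.07, and the next of 8 libraries 9.56. The part of the list length in these values was not tested.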

How the results depend on the processing

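No paired analysis was possible because the labels give no replicate numbers, and those used only name libraries. The count of TAL1 sites called more often in Pass libraries (17) was 0 of 20 tested with the study's length series alone, where 0% passed over the genome. It was 1 of 18 with the other libraries alone, against 18.4% over the genome. With windows of 10 kb it was 10 of 15, against 48.9%, and 9 to 18 with each library left out. For CTCF (21) it was 12 of 20 with peaks of −log10 p of at least 10, against 62.4% over the genome. It was 0 of 25 with libraries of the study's lengths alone (where 1 Low pass library stands against 10 Pass libraries), and 0% passed over the genome. That set holds both Pass libraries of 248 bp. In the paper 1 CTCF library of that length belongs to a pilot with fewer cells, so the set goes beyond the length series. With 10 kb it was 7 of 11, against 65.5%, and 20 to 22 with each library left out. In that set of the study's lengths 3 CTCF sites changed direction, to −10 percentage points at Uros 73038 bp, −30 at Uros 25785 bp and −20 at Cpox −46038 bp. The only Low pass library of that set, of 178 bp, called all 3 sites, so any Pass library without a call makes the difference negative. CTCF sites called more often in primary cells (2) were 1 of 14 tested with 10 kb, against 9.82% over the genome, and 2 to 3 with each library left out. Sites called less often (0) were 1 of 34 with Pass primary libraries alone, against 1.16% over the genome, and 0 to 1 with each left out. The added site is that in Nars near Fech. Its adjusted p was 0.0144 to 0.0286 (Fisher's exact test) without the LSK library of 231 bp, MEP, GMP, CFUMk or the Pass library of 228 bp. With peaks of −log10 p of at least 10 it was 0.656 (exact test). The Zswim5 site passed without any 1 of 6 libraries, ERY of 276 bp and Pass of 272, 248 (the list of 12915 peaks), 267, 226 and 220 bp (adjusted p 0.021 to 0.0438, Fisher's exact test). Between Pass and other libraries, the TAL1 site in Uros intron 5 passed without any 1 of 5 libraries (0.0434 to 0.0475), the CTCF site at Ppox −40840 bp passed without any 1 of 7 (0.0285 to 0.047), and that at Slc25a38 −29170 bp failed without any 1 of 7 (0.066 to 0.0674). Between CFUE and ERY and other primary cells the counts were 0 in each setting run. Reference sites of CTCF (22) were 12 with peaks of −log10 p of at least 10 and 7 with 10 kb, and those of TAL1 (20) were 13 with 10 kb. Merging peaks only where they share 200 bp changed no call at a site described one by one. Read depth is not given, so a missing call cannot be told from a shallow library.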

Other observations

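The 18 TAL1 sites that were no reference sites were called in at most 3 of 10 Pass libraries, with median folds of 4.74 to 12.9 where a Pass library called them. The 45 CTCF sites called in less than 50% of both Pass and primary libraries were called in at most 5 of 14 Pass and 5 of 11 primary libraries. Of all 72 CTCF sites 26 were called in a single library, 25 in primary cells only and 7 in Low pass or Fail libraries only. Of the last, the Alas2 window held several, in introns of Apex2 and Pfkfb1, each called in 1 Fail library, with folds of 13.1 to 28.9. The Cpox promoter had a CTCF site called in 4 of 11 primary and 0 of 14 Pass libraries (adjusted p = 0.11, Fisher's exact test), which the TAL1 promoter site overlapped.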
